A study of Mus musculus with 2 samples.

Results

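The microRNA genes examined here are 7 that are best known from the pancreas: Mir375, Mir7-1, Mir7-2 and Mir7b, linked to the endocrine islet, and Mir216a, Mir216b and Mir217, linked to the exocrine acinus. They were chosen by symbol from the 1973 microRNA genes in the count tables, and all 7 had an entry. The samples were liver tissue of mice of strain B6NCrl on postnatal day 0. Pup 1 gave replicate 1 and pup 2 gave replicate 2. The pups came from 1 pregnant female, the labels give the same donor entry for both, and sex was not collected. No treatment, second tissue or second age was set beside them, so the question was how much of the islet-linked and of the acinar-linked microRNAs a newborn liver contains, and how far its pups differ.

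A microRNA is cut from a hairpin transcript by Drosha and then Dicer, and either arm of the hairpin can be loaded into Argonaute, where bases 2 to 8 of the arm, the seed, pair with target messenger RNAs. miR-375 is the most abundant microRNA of islets, where it restrains insulin secretion and is needed for normal alpha and beta cell mass, and it is also made in the pituitary and in enteroendocrine cells of the gut. miR-7 is shared by islet endocrine cells, the pituitary and neurons, and is bound by the circular RNA Cdr1as. miR-216a, miR-216b and miR-217 mark the acinar cells that make digestive enzymes.

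The mature arms are printed to show which of these microRNAs a short read could tell apart from other microRNA hairpins. A read that fits several loci is counted on no gene. The rest of the genome was not searched, so an arm distinct among hairpins need not map to a single place. All 7 genes were found in RefSeq on build GRCm38.p6, the same assembly as mm10, with 12 different arms. Only the 5′ arm of Mir375 was in that set, so miR-375-3p is named only. The seed of miR-375-3p was not compared with other genes, nor its sequence with the other hairpins of the set. Counts are per gene and do not separate the arms, so the arm checks below need not cover the reads counted for Mir375. Capitals mark the seed, and sequences run 5′ to 3′.

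miR-375-5p (chr1:74900696-74900717, minus strand): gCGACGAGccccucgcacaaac
miR-7a-5p of Mir7-1 (chr13:58392841-58392863, minus strand): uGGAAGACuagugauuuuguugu
miR-7a-5p of Mir7-2 (chr7:78888295-78888317, plus strand): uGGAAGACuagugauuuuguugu
miR-7b-5p of Mir7b (chr17:56243017-56243040, plus strand): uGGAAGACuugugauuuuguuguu
miR-7a-1-3p of Mir7-1 (chr13:58392800-58392821, minus strand): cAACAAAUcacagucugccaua
miR-7a-2-3p of Mir7-2 (chr7:78888335-78888356, plus strand): cAACAAGUcccagucugccaca
miR-7b-3p of Mir7b (chr17:56243055-56243076, plus strand): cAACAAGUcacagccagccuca
miR-216a-5p (chr11:28757018-28757039, plus strand): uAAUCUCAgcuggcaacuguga
miR-216b-5p (chr11:28746204-28746225, plus strand): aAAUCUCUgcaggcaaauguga
miR-217-5p (chr11:28763761-28763783, plus strand): uACUGCAUcaggaacugacugga

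The 5′ arms of the 3 Mir7 genes carry 1 seed, GGAAGAC. In the RefSeq set used here no other gene had it. The arm is identical in Mir7-1 and Mir7-2, whose hairpins share a stretch of 24 bases. miR-7b-5p differs from miR-7a-5p over the 23 positions they share only at A10U, counted from 1 at the 5′ end with the miR-7a base first, and is 1 base longer at its 3′ end. The longest stretch that the Mir7b hairpin shares with either of the other Mir7 hairpins is 14 bases. The 3′ arms differ more, with 3 substitutions between miR-7a-1-3p and miR-7a-2-3p. These 3′ arms, and reads that run past the shared stretch, are what can place a Mir7-1 or a Mir7-2 read at its own gene.

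The acinar-linked arms are distinct from each other. miR-216a-5p and miR-216b-5p match at 18 of 22 positions, with the substitutions U1A, A8U, U11A and C17A given with the miR-216a base first. A8U falls in the seed, so by bases 2 to 8 they count as separate seeds. No stretch over 6 bases is shared between any 2 of the Mir216a, Mir216b and Mir217 hairpins. The arms of Mir216a, Mir217 and Mir7b, the 3′ arms of Mir7-1 and Mir7-2 and miR-375-5p held no 18-base stretch in common with any other of the 1005 RefSeq hairpins, searched on both strands. The arms of Mir216b did so with Mir216c alone, which is annotated on the opposite strand of the same place.

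Levels are given as CPM, the counts on the strand of a gene per 1000000 such counts over all microRNA genes, and means carry the SD of the 2 pups. The libraries held 3422622 such counts in pup 1 and 4538427 in pup 2, so that 1 count is worth 0.292 CPM and 0.220 CPM. A count of 0 allows up to 0.877 CPM in pup 1 and 0.661 CPM in pup 2, the limit being 3 counts. Reads mapped to several loci are on no gene, so levels, shares and ranks are those of uniquely placed reads. Genes whose mature arm has copies elsewhere can therefore stand too low in the order, and other genes too high. Intervals are exact, at 95%, and cover counting error only. They take each read as independent, so PCR copies of a molecule, where not collapsed, would make them too narrow. Mir122, the defining hepatocyte microRNA, ranked 1 of all genes with 342309 CPM in pup 1 and 354939 CPM in pup 2. The 4 hepatocyte genes listed, Mir122, Mir192, Mir194-1 and Mir194-2, were all detected and summed to 354114 CPM and 366157 CPM. In liver tissue, fewer cells of a type and less RNA per cell cannot be told apart.

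All 7 genes had counts in both livers, and 4 of them had at least 10 counts in both libraries, namely Mir375, Mir7-1, Mir216b and Mir217. Of all 1973 genes, 15.8% reached that count, and 656 had at least 1 count in either library. Together the 7 genes held 0.203% of the counts in pup 1 (interval 0.198 to 0.207%) and 0.220% in pup 2 (0.215 to 0.224%). Nearly all of it was Mir375, which had 6586 of their 6933 counts in pup 1 and 9457 of 9968 in pup 2, a share of 94.9% ± 0.0858 (SD, n = 2). No uniquely mapped read was counted on the opposite strand of any of the 7 genes in either library, which includes the place of Mir216c, antisense to Mir216b and without an entry of its own.

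**Figure D1:**
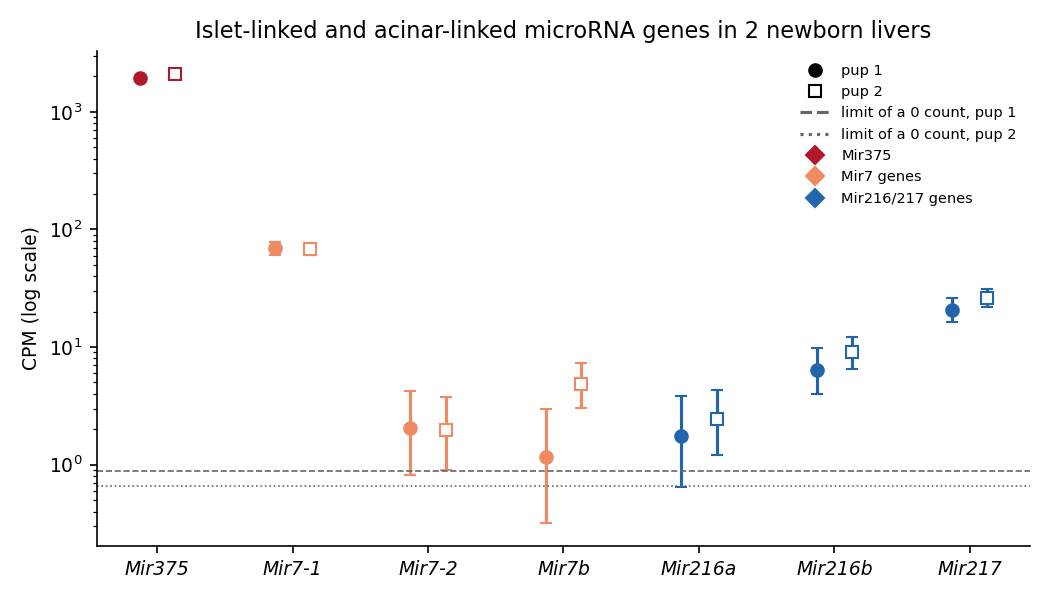
CPM (vertical axis, log scale) of each gene in pup 1 (filled circles) and pup 2 (open squares), with exact 95% counting intervals as bars and the limit of a 0 count as horizontal lines. Mir375 averages 2004 CPM, Mir7-1 averages 68.7 CPM, and the 3 genes Mir7-2, Mir7b and Mir216a reach down towards the limit of a 0 count.

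Mir375, the islet microRNA, was well represented in the counts of both newborn livers. It had 6586 counts in pup 1 and 9457 in pup 2, or 1924 CPM (interval 1878 to 1971) and 2084 CPM (2042 to 2126). Its mean of 2004 ± 113 CPM (SD, n = 2) placed it 59th of all genes in the order of uniquely placed reads. It ranked 60 in pup 1 and 57 in pup 2. Mir15b at 2050 ± 156 CPM stood directly above it and Mir151 at 1963 ± 19.6 CPM directly below, and neither was separated from it by more than the spread between the pups. The gene (ENSMUSG00000065616.2 in the tables) lies between genes on the minus strand of chromosome 1 from 74900658 to 74900721 on mm10, 1350 bases from Cfap65 and 7515 bases from Cryba2, the nearest coding genes. The tables carry version 2 of this identifier and the annotation used for the coordinates carries version 3.

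The Mir7 genes stood far lower, and their counts came almost entirely from 1 of the 3 loci. Mir7-1 had 237 and 309 counts in pup 1 and pup 2, or 69.2 CPM (60.7 to 78.6) and 68.1 CPM (60.7 to 76.1). It lies within introns of all 12 annotated Hnrnpk transcripts that span it, on the same strand (chromosome 13, 58392779 to 58392886), Hnrnpk being a broadly expressed RNA-binding protein gene. At rank 192 its neighbours in level were Mir338 (70.3 ± 2.57 CPM) and Mir362 (62.9 ± 13.2 CPM), and neither differed from Mir7-1 (68.7 ± 0.820 CPM) beyond the spread between the pups.

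Mir7-2, between genes on chromosome 7 (78888277 to 78888373), had 7 and 9 counts, or 2.05 CPM in pup 1 and 1.98 CPM in pup 2. Mir7b, between genes on chromosome 17 (56242988 to 56243098), had 4 and 22 counts, or 1.17 CPM in pup 1 and 4.85 CPM in pup 2. Both genes are near the floor of these libraries, and neither reached 10 counts in both. Mir7-1 made up 95.6% of the Mir7 counts in pup 1 (interval 92.2 to 97.8%) and 90.9% in pup 2 (87.3 to 93.7%). These shares, and the Mir7 levels, leave out every read of the identical miR-7a-5p arm that could not be placed at a single locus. Reads mapped to several loci were 25.2% of all reads in pup 1 and 24.7% in pup 2 and are on no gene, so the Mir7-1 and Mir7-2 counts are lower limits of the microRNA made there, and their ratio is that of their placed reads only.

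The acinar-linked genes were present at a low level and kept the same order in both livers. They lie on the plus strand of chromosome 11 within 17645 bases (28746191 to 28763835), in the order Mir216b, Mir216a, Mir217. Mir216a and Mir217 are in an intron of the long noncoding RNA gene Gm12082, and Mir216b lies 10735 bases upstream of Mir216a. The nearest coding gene, Efemp1, is 89369 bases beyond Mir217.

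Mir217 had 71 and 119 counts in pup 1 and pup 2, or 20.7 CPM (16.2 to 26.2) and 26.2 CPM (21.7 to 31.4). Mir216b had 22 and 41 counts, or 6.43 CPM (4.03 to 9.73) and 9.03 CPM (6.48 to 12.3). Mir216a had 6 and 11 counts, or 1.75 CPM (0.643 to 3.82) and 2.42 CPM (1.21 to 4.34). Within each liver the intervals of these 3 genes did not overlap, and in both livers Mir217 was highest and Mir216a lowest. In pup 1 Mir217 made up 71.7% of the cluster's counts, Mir216b 22.2% and Mir216a 6.06%. In pup 2 the shares were 69.6%, 24.0% and 6.43%, each within the counting interval of the other pup. Mir217 ranked 227 of all genes, between Mir877 (24.3 ± 5.34 CPM) and Mir208b (22.8 ± 7.91 CPM), and Mir216b ranked 269, between Mir219a-1 (7.80 ± 1.12 CPM) and Mir5113 (7.35 ± 3.23 CPM). None of these neighbours was separated from its member by more than the spread between the pups.

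**Figure D2:**
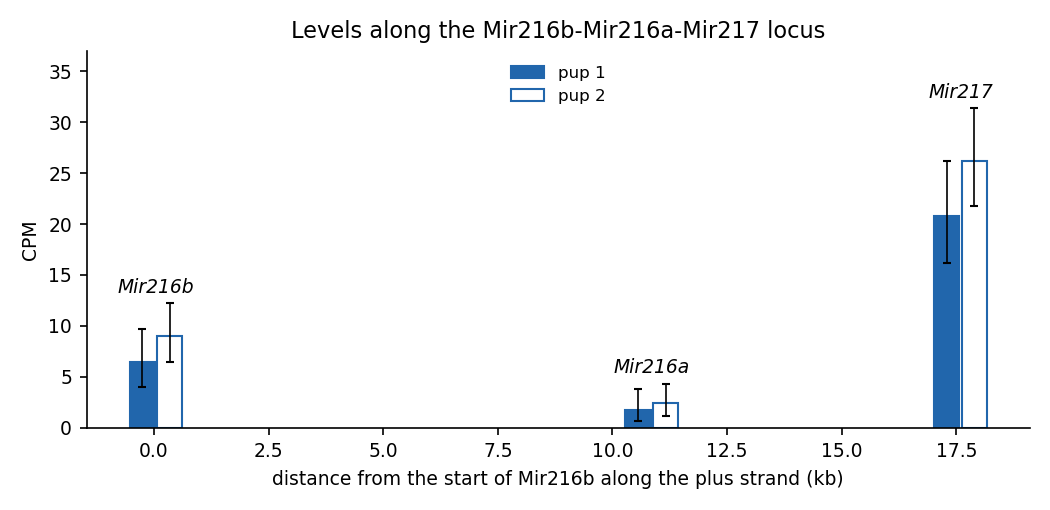
CPM (vertical axis, from 0) of Mir216b, Mir216a and Mir217 against their distance in kb from the start of Mir216b, in pup 1 (filled bars) and pup 2 (open bars), with exact 95% counting intervals. Mir217, at the far end of the locus, is the highest in both pups at 20.7 and 26.2 CPM, and Mir216a, in the middle, is the lowest at 1.75 and 2.42 CPM.

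The islet-linked genes were then set against the acinar-linked genes within each liver. The 4 islet-linked genes summed to 1997 CPM in pup 1 and 2159 CPM in pup 2, against 28.9 CPM and 37.7 CPM for the 3 acinar-linked genes. The islet-linked sum was 69.0 times the acinar-linked sum in pup 1 (exact interval 56.6 to 85.1) and 57.3 times in pup 2 (49.3 to 67.0), a mean of 63.2 ± 8.30 (SD, n = 2). The difference between the sums was many times the difference between the pups. A two-sided exact permutation test that flips the sign of each pup's log2 ratio gave p = 0.5, which is the smallest that 2 pups allow. Different microRNAs are ligated and amplified with different efficiency, so ratios between genes compare read counts and not molecules.

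This excess rested on Mir375. Alone, it had 66.5 times the acinar-linked counts in pup 1 and 55.3 times in pup 2. The 3 Mir7 genes without it had 2.51 times the acinar-linked counts in pup 1 (1.98 to 3.20) and 1.99 times in pup 2 (1.65 to 2.40), and both intervals lay above equality. The unplaced miR-7a-5p reads would raise these Mir7 ratios by an unknown amount. Mir375 itself stood at 26.6 times the Mir7 sum in pup 1 and 27.8 times in pup 2, a figure that the same reads would lower.

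In the order of mean levels, Mir375 was followed by Mir7-1, Mir217, Mir216b, Mir7b, Mir216a and Mir7-2. From Mir375 down to Mir7b each step was larger than the summed SDs of the genes on either side, and the pups did not overlap. The steps were 29.2-fold from Mir375 to Mir7-1, 2.92-fold from Mir7-1 to Mir217, 3.04-fold from Mir217 to Mir216b and 2.57-fold from Mir216b to Mir7b. The last of these depended on the pup, at 5.50-fold in pup 1 and 1.86-fold in pup 2, where the counting intervals of Mir216b (6.48 to 12.3 CPM) and Mir7b (3.04 to 7.34 CPM) overlapped. Mir7b (3.01 ± 2.60 CPM), Mir216a (2.09 ± 0.474 CPM) and Mir7-2 (2.01 ± 0.0439 CPM) were not separated. The places of Mir7-1 and Mir7-2, and the steps beside them, are those of placed reads only, since unplaced miR-7a-5p reads are left out.

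**Figure D3:**
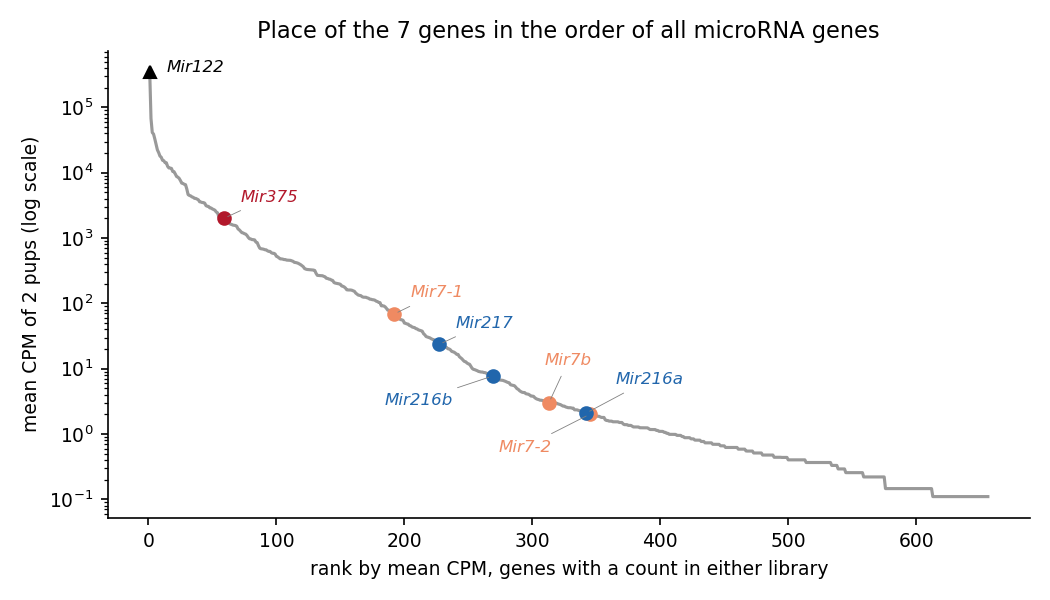
Mean CPM of 2 pups (vertical axis, log scale) against rank (horizontal axis) for the 656 genes seen at least once in either pup, drawn as a grey line. Mir375 (red) is at rank 59, Mir7-1, Mir7b and Mir7-2 (orange) are at ranks 192, 313 and 345, Mir217, Mir216b and Mir216a (blue) are at ranks 227, 269 and 342, and the triangle marks Mir122.

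Other microRNAs known from the pancreas were then examined. Of 13 further genes known from islets, of which 7 are also on the neural list, 12 were in the table and 4 had at least 10 counts in both libraries. Those 4 were Mir132 (137 and 125 CPM in pup 1 and pup 2), Mir212 (8.47 and 9.03 CPM), Mir204 (7.30 and 6.61 CPM) and Mir184 (6.43 and 5.73 CPM), a microRNA of beta cells. All of them lay below Mir375. Mir132 alone lay above the placed reads of Mir7-1, and the 12 genes together summed to 163 CPM in pup 1 and 151 CPM in pup 2. A further 4 of the 12 were at 0 in both libraries, namely Mir9-2 and the 3 Mir124 genes. The Mir124 genes and the Mir9 genes exist as copies with the same mature sequence, so their reads may be among those at several loci, and a 0 there does not limit the microRNA.

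Both further genes known from acinar cells were detected, and both are also expressed in liver. Mir148a had 3694 CPM in pup 1 and 3306 CPM in pup 2, and Mir802 had 71.0 and 86.6 CPM. Mir216a, Mir216b and Mir217 together reached 28.9 and 37.7 CPM, below either of them in both pups. Mir375 stood at 52.1% of Mir148a in pup 1 and 63.0% in pup 2.

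Mir375 is also found in epithelia, and its level lay within the range of the epithelial Mir200 genes, nearest to Mir200b. The epithelial list is wide, with means from 9.67 CPM for Mir215 to 4491 CPM for Mir429. Mir375 also lay within the range of the hepatocyte list, from Mir194-1 at 33.0 CPM to Mir122 at 348624 CPM. It lay between Mir802 and Mir148a as well, so its level does not single out 1 list. All 6 genes of the epithelial list were detected, and they summed to 6852 CPM in pup 1 and 6662 CPM in pup 2. Mir375 was 1.18 times Mir200b in pup 1 (1.14 to 1.22) and 1.27 times in pup 2 (1.23 to 1.31). Mir429, which shares a transcript with Mir200b, was higher than Mir375, which reached 42.0% of it in pup 1 and 47.4% in pup 2. Mir375 lay above the other 4, at 5.73 and 6.63 times Mir200a, 7.58 and 7.87 times Mir200c, 49.1 and 58.0 times Mir141, and 183 and 236 times Mir215 in pup 1 and pup 2. Mir375 stood at 0.562% of Mir122 in pup 1 and 0.587% in pup 2.

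The neural list of Mir124, Mir9 and Mir153 genes had 4 counts in pup 1 and 5 in pup 2 over the 6 genes in the table, of which Mir153 had 3 and 5, and copies limit what the other genes show. Mir132 and Mir212, which are also known from neurons, were detected, at the levels given above for the islet list. The defining acinar markers were low but not at 0, from 1.75 to 20.7 CPM in pup 1 and from 2.42 to 26.2 CPM in pup 2, and Mir184 of the islet list was at 6.43 and 5.73 CPM. Which cells of these livers held Mir375 and the acinar-linked microRNAs, and whether tissue next to the liver added to them, was not tested.

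**Figure D4:**
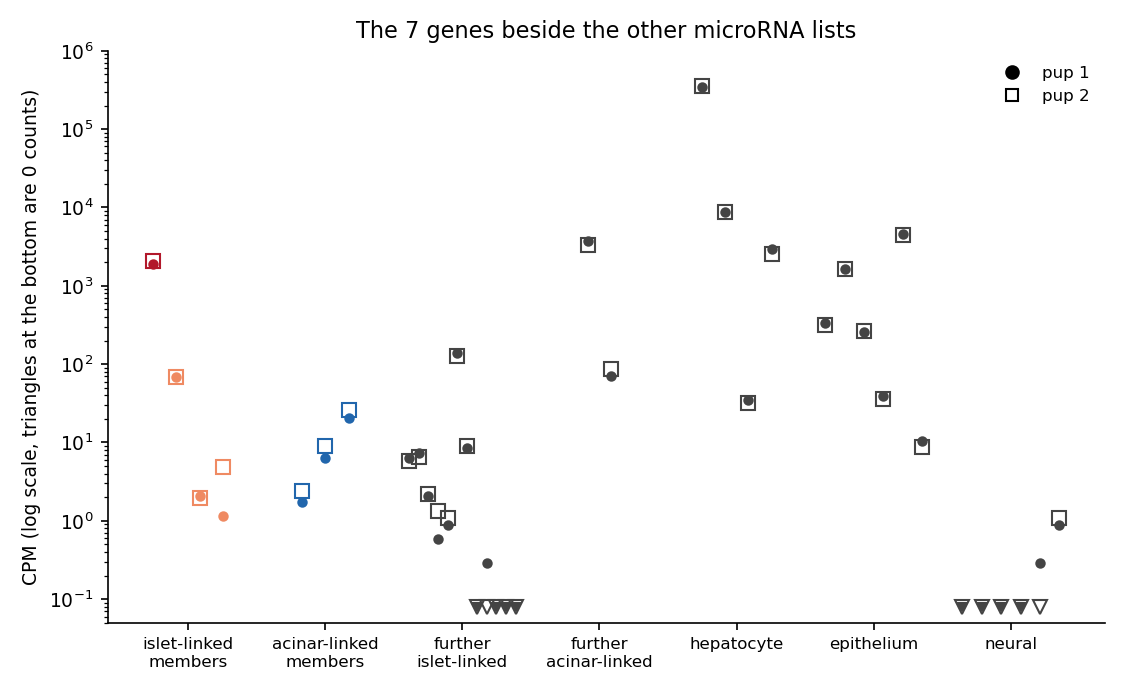
CPM (vertical axis, log scale) of the islet-linked and acinar-linked members, coloured as in the plot of levels, beside the further islet-linked, further acinar-linked, hepatocyte, epithelial and neural lists in grey, with pup 1 as filled and pup 2 as open symbols and triangles for 0 counts. Mir375 lies within the ranges of the epithelial, hepatocyte and further acinar-linked lists and above every further islet-linked gene. The acinar-linked members lie below Mir148a and Mir802.

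The livers of the pups were compared last, gene by gene, as the ratio of pup 1 to pup 2. Each pup has 1 library, so no p-value is given and the intervals compare these libraries only. Mir375 was slightly lower in pup 1, with a log2 ratio of -0.11 (-0.16 to -0.07), or 0.923-fold. Mir7-1 and Mir7-2 had log2 ratios of 0.02 (-0.23 to 0.27) and 0.04 (-1.62 to 1.64), and the pups could not be told apart. Mir7b had a log2 ratio of -2.05 (-4.05 to -0.49), from 4 counts in pup 1 and 22 in pup 2, and was the only one of the 7 that lay more than 1.5-fold apart. That is 1 of 7, beside 15.4% of the 390 genes that had 10 or more counts summed over the pups, and among the 142 of these with under 100 counts, as Mir7b has, 38.7% were that far apart.

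The acinar-linked genes all lay lower in pup 1, though none of them alone beyond counting error. The log2 ratios were -0.34 (-0.78 to 0.10) for Mir217, -0.49 (-1.31 to 0.29) for Mir216b and -0.47 (-2.19 to 1.09) for Mir216a. Summed, they had 99 counts in pup 1 and 171 in pup 2, a log2 ratio of -0.38 (-0.75 to -0.02), or 0.768-fold (0.593 to 0.989). With all uniquely mapped reads as the denominator the interval of this sum reached equality, at -0.74 to 0.00083. The islet-linked sum had a log2 ratio of -0.11 (-0.16 to -0.07). The interval of the ratio excluded equality for Mir375 and Mir7b, 2 of the 7 genes, and for 34.4% of the 390 genes. The median log2 ratio was -0.34 over the 7 genes and -0.00223 over the 390. The first is the ratio of Mir217, whose interval included equality. Below 0 lay 5 of the 7 genes and 196 of the 390. Since 3 of the 7 genes share 1 locus, they are not separate replicates, and a shift of the set was not tested.

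**Figure D5:**
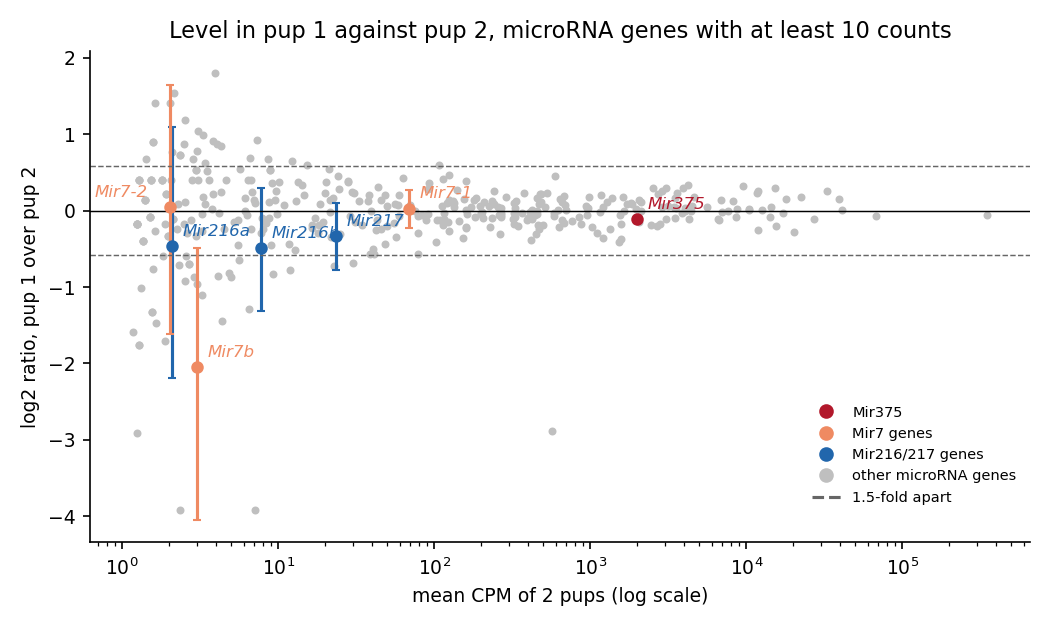
Log2 ratio of pup 1 over pup 2 (vertical axis) against mean CPM (horizontal axis, log scale) for the 390 genes that had 10 or more counts summed over the pups (grey) and the 7 genes (coloured, with exact 95% counting intervals), with dashed lines at 1.5-fold. Mir7b, at -2.05, is the only coloured point outside the dashed lines, and Mir217, Mir216b and Mir216a lie between -0.34 and -0.49.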

How the data were processed

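The authors deposited unnormalized read counts for each microRNA gene, with a separate table for each library. The text beside the files names assembly mm10 and GENCODE release M4. Inserts were below 30 bases and the RNA was total RNA, per the labels. Which aligner, counter and trimmer were run is not stated there. The tables have no header. Their 3 count columns were read as counts without regard to strand, on the gene strand and on the opposite strand. Unassigned and gene counts in each add up to the same total, so the columns count the same reads. That total does not show which strand a column holds. The column taken as the gene strand held 91.1% of uniquely mapped reads in pup 1 and 90.1% in pup 2. The column taken as the opposite strand held 4.44% and 4.25%. Uniquely mapped reads outside the gene strand of microRNA genes, 8.87% in pup 1 and 9.92% in pup 2, stayed out of the library totals.

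Identifiers were matched without version to GENCODE M21 on the same assembly, which gave 1894 of 1973 a symbol. Arm sequences and their build come from RefSeq. Gene-strand counts were scaled to CPM with Python 3.11.15, numpy 2.4.6 and scipy 1.17.1. Levels have exact Poisson intervals, shares exact Clopper-Pearson intervals, and ratios exact intervals conditional on the summed count. Genes more than 1.5-fold apart were counted as differing between the pups. This comparison was also run on simulated counts with set folds and counting error only. That simulation holds no variation between pups, so it does not show how the intervals behave on real livers. No quasi-likelihood test between groups was possible with 1 group. TMM factors (edgeR 4.0.16) and DESeq2 1.42.0 size factors were alternatives, beside counts without strand, other denominators, other count minimums, other make-ups of the islet-linked sum and each pup alone. The sums of genes were compared between the pups under these alternatives only after the data were seen.

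The genes and lists were chosen with earlier results of these data known. Named genes are the 7 members, Mir122, the genes of the lists where detected or at 0, microRNA genes within 50 kb of a member, genes sharing a seed with a member, and the genes directly above and below each detected member by mean CPM. Coding and host genes are named from the annotation.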

Additional observations from a re-analysis of the deposited data

How the results depend on the processing

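The excess of the 4 islet-linked over the 3 acinar-linked genes was 63.2-fold. It was 69.0 in pup 1 alone, 57.3 in pup 2 alone, and 60.9 with Mir375 alone as islet-linked. Counts made without regard to strand could not change it, since none of the 7 genes had counts on the opposite strand. With the 3 Mir7 genes alone the excess was 2.25, because Mir375 holds most of the counts. The make-up of the acinar-linked sum was not varied. The 2 further acinar-linked genes, both also expressed in liver, summed to 3765 CPM in pup 1 and 3392 CPM in pup 2. The islet-linked sum was lower, at 1997 and 2159 CPM, and the further islet-linked genes held 163 and 151 CPM. The excess therefore holds for the 3 acinar-linked genes chosen, and not with Mir148a among them. The share of counts held by the 7 genes was 0.211%. It ranged from 0.203 to 0.220% with either pup left out, and was 0.324% without Mir122 in the denominator and 0.191% of all uniquely mapped reads, which follows from the smaller and the larger denominator. With a minimum of 10 counts in each pup, 4 of the 7 genes were detected, beside 15.8% of all genes. The number was 7 with a minimum of 1, 6 with 5 and 4 with 20, and the share of all genes was not taken at these minimums. Of the 390 genes that had 10 or more counts summed over the pups, 15.4% lay more than 1.5-fold apart. That share was 42.4% for the 656 genes seen at least once in either pup, and 2.02% for the 248 whose summed count reached 100. The log2 ratios of the 7 genes stayed within their main counting intervals under all 5 alternatives to the scaling or the strand, which shifted every ratio by at most 0.03. No paired analysis was possible because the series has 1 group. Depth limits Mir7-2, Mir7b and Mir216a, each under 10 counts in pup 1, and reads at several loci limit Mir7-1 and Mir7-2.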
